A study of Mus musculus with 6 samples.

Results

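The transcription factors described here are 10 genes that act in hematopoietic stem and progenitor cells, namely Gata1, Gata2, Tal1, Lyl1, Lmo2, Erg, Fli1, Runx1, Myb and Gfi1b. They were taken by gene symbol from the probe sets of the deposited table, in which each of the 10 had 1 probe set, out of 19938 genes with a symbol. The cells were mouse leukemia cells of a line labelled MLL-AF10, after a fusion of the histone methyltransferase MLL with AF10. Cells given 0.5 µM of an IKK inhibitor (3 samples) were compared with cells given vehicle (3 samples). All 6 samples came from this line, grown in serum-containing RPMI with WEHI-conditioned medium, and each was read on 1 whole-transcript array. The sources used here do not give the name of the compound, the length of treatment, or whether the line is 1 clone and the samples separate cultures. The spread behind each p-value is therefore that between these samples and may be technical. The comparison asks which of these factors change in transcript level when IKK, the kinase upstream of NF-kB, is inhibited.

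Most of these factors bind DNA next to each other at the regulatory elements of blood progenitor genes, including each other's. TAL1 and LYL1 are related basic helix-loop-helix proteins that bind E-boxes together with E proteins, and LMO2 bridges them through LDB1 to GATA1 or GATA2. ERG and FLI1 are ETS factors, RUNX1 is the DNA-binding subunit of core binding factor, MYB keeps progenitors proliferating and immature, and GFI1B is a zinc finger repressor of erythroid and megakaryocyte cells. LYL1, TAL1, LMO2, GATA2, RUNX1, ERG and FLI1 are known together as a heptad of factors that share binding sites in stem and progenitor cells. GATA1 takes over from GATA2 as erythroid and megakaryocyte cells mature.

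With the IKK inhibitor, Lyl1 fell and was the single factor of the 10 to pass the test. Runx1 was higher on each inhibitor array and lay at the threshold, and Lmo2 and Myb were slightly lower on each inhibitor array without passing. The other 6 had overlapping groups. All changes were small, with log2 fold changes between -0.26 and 0.21. The test was limma's moderated test on log2 intensity across 19847 genes, with Benjamini-Hochberg adjustment and a threshold of adjusted p under 0.05. It called 13.9% of all genes, 7.1% higher and 6.75% lower with the inhibitor. One call among 10 factors, a share of 10%, is near that background. The 3 arrays of a group lay all above those of the other for 4 of the 10 factors, against 32.9% of all genes. The median log2 fold change was -0.03 over the 10 factors and 0.01 over all genes. The median absolute value was 0.09 over the factors and 0.10 over all genes.

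The windows below show the promoters of the factor that passed and of the factor nearest to it, as far as they bear on the members' own binding motifs. Sequences are from RefSeq on GRCm38.p6 and run from 250 bases before to 50 bases after an annotated transcription start. Of the 10 factors 8 had such a window, 13 windows in all. Lmo2 and Fli1 are not shown. The Lyl1 window lies at chr8:84701207-84701506 on the + strand. Runx1 has a window of a proximal start at chr16:92697280-92697579 and that of a distal start at chr16:92826025-92826324, both on the - strand. Capitals mark the ETS motif in its forms CCGGAA (optimal) and AGGAAG (a common variant) as well as the RUNX motif TGTGGT, read on either strand.
Lyl1: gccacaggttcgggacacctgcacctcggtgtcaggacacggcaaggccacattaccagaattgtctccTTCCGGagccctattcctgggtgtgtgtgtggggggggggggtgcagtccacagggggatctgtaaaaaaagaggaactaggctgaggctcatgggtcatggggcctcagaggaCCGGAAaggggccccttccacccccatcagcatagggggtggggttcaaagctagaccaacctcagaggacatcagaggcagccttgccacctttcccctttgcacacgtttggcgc
Runx1 proximal: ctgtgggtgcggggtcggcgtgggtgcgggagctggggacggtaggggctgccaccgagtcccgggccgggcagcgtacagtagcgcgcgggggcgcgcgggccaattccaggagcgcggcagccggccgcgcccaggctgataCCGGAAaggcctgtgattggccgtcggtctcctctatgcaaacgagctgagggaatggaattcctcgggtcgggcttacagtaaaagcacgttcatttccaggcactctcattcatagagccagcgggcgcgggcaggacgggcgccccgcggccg
Runx1 distal: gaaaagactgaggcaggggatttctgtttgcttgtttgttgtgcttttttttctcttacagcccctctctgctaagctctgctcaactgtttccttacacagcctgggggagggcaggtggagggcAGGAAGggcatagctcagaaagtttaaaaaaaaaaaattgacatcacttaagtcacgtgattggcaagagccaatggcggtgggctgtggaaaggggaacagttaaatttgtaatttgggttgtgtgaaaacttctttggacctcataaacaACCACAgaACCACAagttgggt
The Lyl1 window held 2 matches to CCGGAA, with first bases at positions -181 and -67 from the start, and the proximal Runx1 window held 1. These were the only matches to CCGGAA among the 13 windows of the factors. A match was thus held by 2 of the 13 windows, near the 14.9% of 32841 mouse promoter windows of the same length. The distal Runx1 window held 2 matches to TGTGGT, both after the start, and 1 match to AGGAAG. At least 1 match anywhere in the window was held by 16.8% of all windows for TGTGGT and by 35.4% for AGGAAG. The GATA motif (the letters GATA with A or T before them and A or G after them, either strand) was found in a window of Tal1, Erg and Gfi1b and in 29.8% of all windows. The E-box CAGCTG was found in 1 window of the factors, of Gata2, and in 16.3% of all windows. The E-box form CAGATG was found in 2, of Tal1 and Myb, and in 17.2% of all windows. AACNG, the core of the MYB motif, was too common to tell windows apart (80.3%). The NF-kB motif was found in 1 window, of Tal1, and in 8.46% of all windows. In the Myb window the E-box overlapped a match to AACNG, and no other matches of different motifs overlapped. A match is a description of these letters and not of binding in these cells.

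Lyl1, a paralog of Tal1 expressed in progenitors and in B and myeloid cells, had intensities of 1218, 1257 and 1294 with the inhibitor, against 1469, 1486 and 1551 with vehicle. All 3 inhibitor arrays lay below all 3 vehicle arrays. The mean was 1256 ± 37.9 with the inhibitor and 1502 ± 43.1 with vehicle (SD, n = 3 each), so the level fell by 16.3%. On the log2 scale the fold change was -0.26 ± 0.05 (SE), with a 95% interval of -0.38 to -0.14 and an adjusted p of 0.0198 by limma. The call was lost without inhibitor array 1 (adjusted p = 0.0806) and without vehicle arrays 1, 2 and 3 (0.0514, 0.0704 and 0.0834), and was kept without inhibitor arrays 2 and 3 (0.0386 and 0.0353). Over these 6 settings the log2 fold change lay between -0.28 and -0.23. In the same arrays 14 of 20 monocyte and macrophage markers were higher with the inhibitor, against 7.1% of all genes, and none was lower. Their summed intensity was 28514 to 29562 on the inhibitor arrays and 16671 to 17087 on the vehicle arrays, and no marker was at the floor on all arrays. Their part in the Lyl1 value was not tested, and in bulk RNA fewer cells of a type and less RNA per cell cannot be told apart.

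Tal1 (SCL), the founding member of this bHLH pair and a factor needed for all blood lineages, had intensities of 129.5, 118 and 145 with the inhibitor, against 123, 122 and 124 with vehicle. The inhibitor arrays lay on both sides of the vehicle arrays. Its log2 fold change was 0.08 ± 0.08 (SE), with a 95% interval of -0.10 to 0.27, and did not pass (adjusted p = 0.575 by limma). The Tal1 value was 0.16 without inhibitor array 2 and 0.01 without inhibitor array 3. Lmo2, the LIM-only bridge of the complex, had intensities of 2539, 2553 and 2516 with the inhibitor, against 2738, 2743 and 2919 with vehicle. The groups did not overlap, and vehicle array 3 was the highest of the 6. The log2 fold change of Lmo2 was -0.14 ± 0.05 (SE), with a 95% interval of -0.26 to -0.02. Its unadjusted p was 0.0245 and its adjusted p 0.115 by limma, so it did not pass over all genes. It passed with quantile normalization (adjusted p = 0.0417), among genes above the median intensity (0.0277) and when the prior followed an intensity trend (0.0048).

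The GATA factors did not pass, and their arrays overlapped. Gata2, the GATA factor of stem cells and mast cells, had intensities of 164, 140.1 and 169.5 with the inhibitor, against 166, 151 and 142 with vehicle. Its log2 fold change was 0.05 (95% interval -0.18 to 0.27). Gata1, the erythroid and megakaryocyte GATA factor, had intensities of 109.95, 93.2 and 116 with the inhibitor, against 105, 116 and 105 with vehicle. Its log2 fold change was -0.03 (-0.25 to 0.19). Both signs depended on single arrays. The value of Gata1 was 0.06 without inhibitor array 2 and 0.02 without vehicle array 2, and that of Gata2 was -0.01 without inhibitor array 3 or without vehicle array 3.

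**Figure D1:**
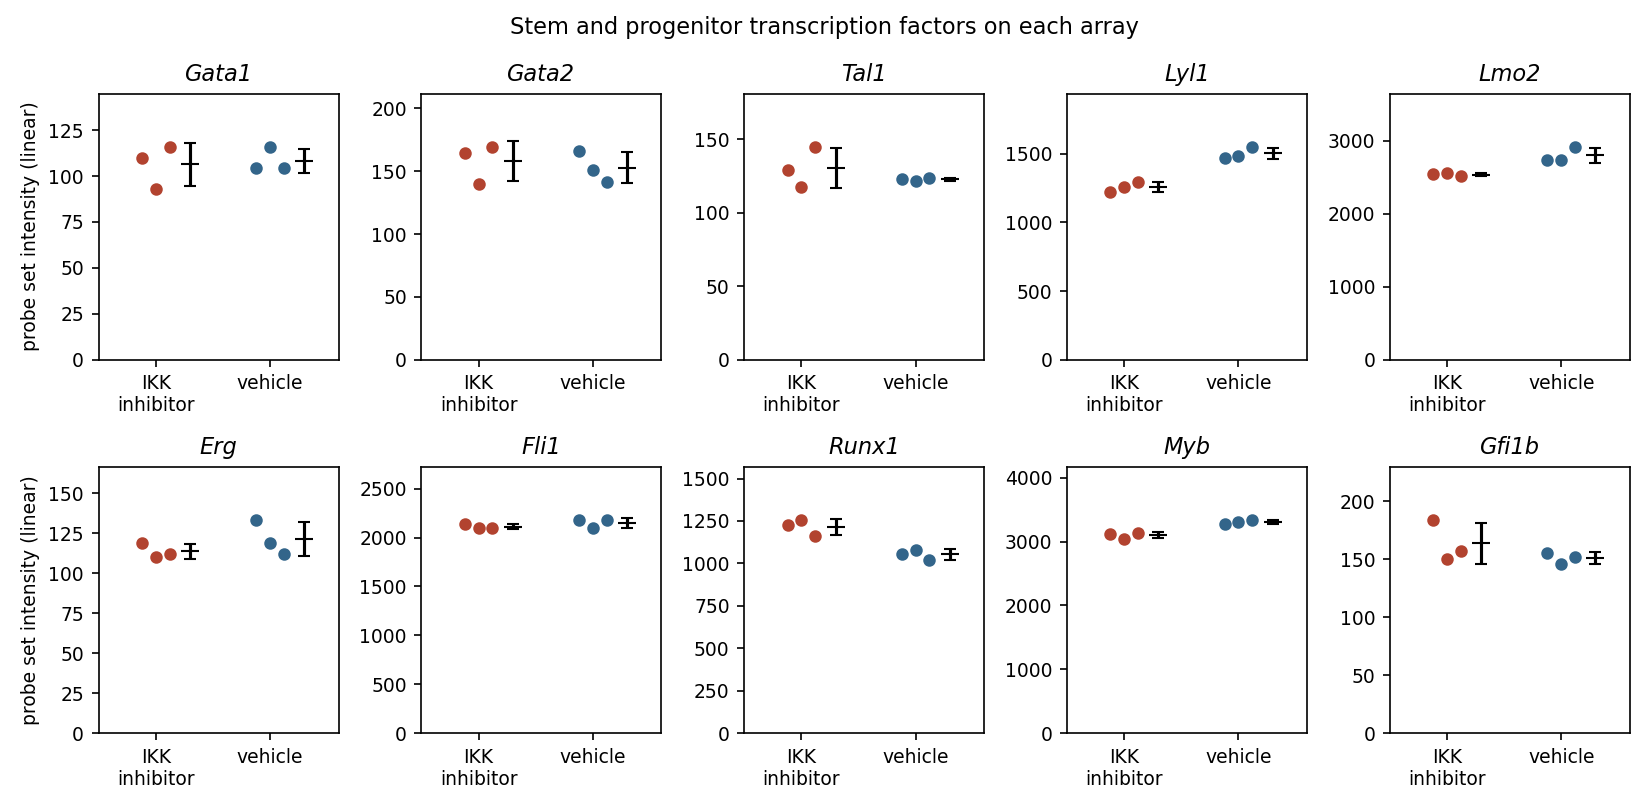
Probe set intensity (linear scale from 0, a scale of its own in each panel) of the 10 factors on the 3 IKK inhibitor arrays (left) and the 3 vehicle arrays (right); points are arrays, and bars show the mean and SD. The groups of Lyl1, Lmo2, Runx1 and Myb do not overlap, and those of the other 6 factors do.

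Runx1, the core binding factor subunit which is often mutated in leukemia, had intensities of 1228, 1254 and 1159 with the inhibitor, against 1058, 1080.3 and 1019.7 with vehicle. Each inhibitor array lay above each vehicle array. The mean was 1214 ± 49.0 with the inhibitor and 1053 ± 30.6 with vehicle (SD, n = 3 each), 15.3% higher. The log2 fold change was 0.21 ± 0.05 (SE), with a 95% interval of 0.08 to 0.33, an unadjusted p of 0.00695 and an adjusted p of 0.0501 by limma, so it did not pass. Its call turned with the setting. Runx1 passed in 8 of 19 alternatives, among them quantile normalization (adjusted p = 0.0336) and a floor of 32 (0.0425), and did not pass with median centring (0.221) or when any array was left out (0.0503 to 0.166). The log2 fold change lay between 0.17 and 0.24 over these 19.

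The ETS factors Fli1 and Erg did not pass. Fli1 had intensities of 2143, 2095 and 2097 with the inhibitor, against 2177, 2095 and 2176 with vehicle. Its groups overlapped, and its log2 fold change was -0.03 ± 0.05 (SE), with a 95% interval of -0.14 to 0.08. Erg, which maintains stem cell self-renewal, had intensities of 119, 110.1 and 112 with the inhibitor, against 133, 119 and 112 with vehicle. Its highest value was on vehicle array 1, and its log2 fold change was -0.09 (95% interval -0.27 to 0.09). Without vehicle array 1 the Erg value was -0.02.

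Myb, which MLL fusion leukemias are known to depend on, had intensities of 3126, 3047 and 3137 with the inhibitor, against 3275, 3308 and 3334 with vehicle. All inhibitor arrays lay below all vehicle arrays. The mean was 3103 ± 48.8 with the inhibitor and 3305 ± 29.5 with vehicle (SD, n = 3 each). The interval of the log2 fold change ran from -0.20 to 0.02, and the adjusted p was 0.256 by limma. Myb passed in 1 of 19 alternatives, when the prior followed an intensity trend (adjusted p = 0.0256). Gfi1b had intensities of 184, 150.1 and 157 with the inhibitor, against 156, 146 and 152 with vehicle. Only inhibitor array 1 stood well above the vehicle arrays. For Gfi1b the log2 fold change was 0.11 (95% interval -0.09 to 0.31), and 0.03 without inhibitor array 1.

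**Figure D2:**
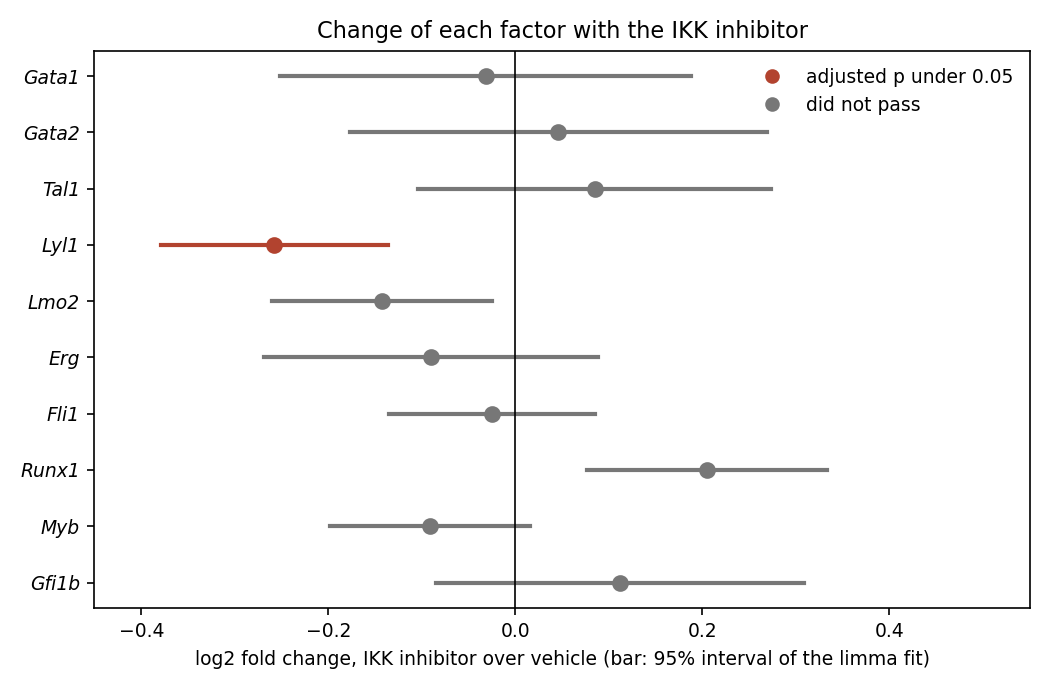
Log2 fold change of each factor, IKK inhibitor over vehicle (x axis), with the 95% interval of the limma fit (n = 3 arrays in each group); red marks an adjusted p under 0.05. Lyl1 at -0.26 is the single factor marked, and the intervals of Lmo2 and Runx1 also leave out 0.

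The 10 factors fell into 2 sets by brightness. Lyl1, Lmo2, Fli1, Runx1 and Myb lay above the median intensity of all genes tested (161), and Gata1, Gata2, Tal1, Erg and Gfi1b did not, though all 10 lay above the 25th percentile. Standard errors of the log2 fold change were 0.04 to 0.05 in the 5 brighter factors and 0.08 to 0.09 in the 5 dimmer ones. In each of the 5 dimmer factors inhibitor array 2 was the lowest of the inhibitor arrays. The median intensity of that array (112.46) was also the lowest of the 6 arrays. Its part in the spread of the dimmer factors was not tested. The 4 factors whose groups did not overlap were all among the brighter 5. The table holds no detection calls, so whether the dimmer 5 were above background is unknown, and intensities of different probe sets do not rank the genes by transcript level. Among these 5 the lowest end of a 95% interval was -0.27, for Erg, and the highest was 0.31, for Gfi1b.

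**Figure D3:**
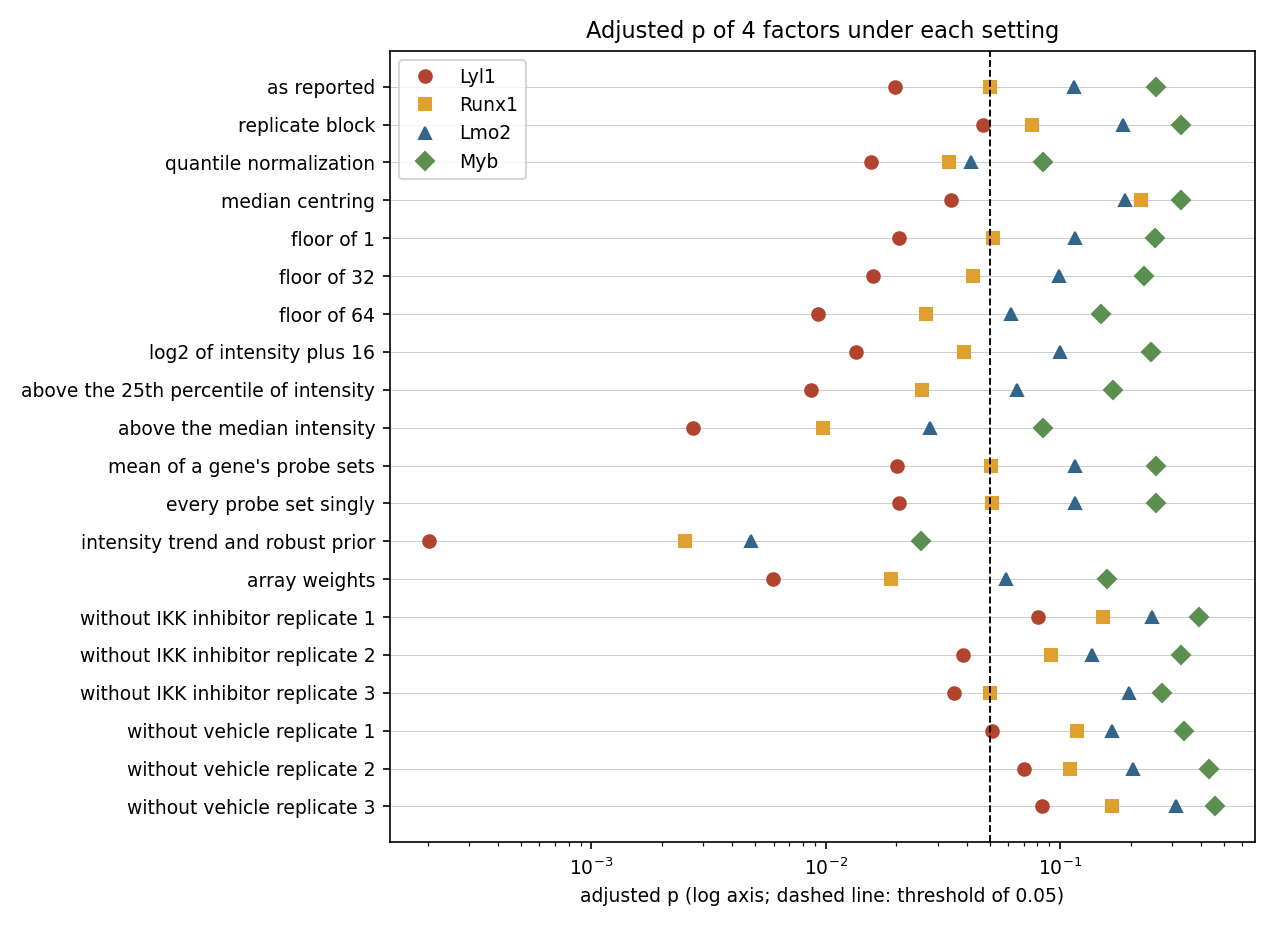
Adjusted p by limma (log axis) of Lyl1, Runx1, Lmo2 and Myb as reported and under 19 alternatives, with the threshold of 0.05 dashed. Lyl1 lies below the threshold in 15 of the 19 alternatives, Runx1 in 8, Lmo2 in 3 and Myb in 1.

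Of 22 partners and cofactors of these factors, 3 rose and 3 fell with the inhibitor. Over all genes 7.1% were called as higher and 6.75% as lower, and the share of the list was not tested against these. The median log2 fold change was -0.05, against 0.01 over all genes. Lmo4, a LIM-only relative of Lmo2 that also binds LDB1, rose to 2095 ± 66.7 with the inhibitor, against 1601 ± 47.6 with vehicle (SD, n = 3 each). Its log2 fold change was 0.39 ± 0.05 (SE, adjusted p = 0.00493 by limma), and it passed in all 19 alternatives. The corepressor gene Runx1t1 (ETO) rose by 0.61 from a dim level and the acetyltransferase gene Ep300 by 0.23 on the log2 scale. The histone deacetylase gene Hdac2 fell by 0.22. The other members called were Ssbp3 (-0.20), which encodes a stabiliser of LDB1, and Kdm1a (-0.23), the demethylase that GFI1B recruits, both named after their values were seen. Of these 6 only Lmo4 was still called without inhibitor array 1 or 3 or without vehicle array 1 or 2, and only Lmo4 and Runx1t1 without vehicle array 3 or with median centring. The 3 closest partners, also chosen after their values were seen, did not pass. Their log2 fold changes were -0.05 for Ldb1, the bridge of the TAL1 complex, -0.17 for the E protein gene Tcf3 and -0.07 for Cbfb, the partner subunit of RUNX1.

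Among 24 tested paralogs of the 10 factors, 4 rose and 3 fell, with a median of 0.01. Of all genes 7.1% were called as higher and 6.75% as lower. Runx3 fell to 648 ± 72.0 with the inhibitor, against 934 ± 27.9 with vehicle (SD, n = 3 each). Its log2 fold change was -0.53 ± 0.09 (SE). Mybl2, a cell cycle relative of Myb, fell by 0.48 on the log2 scale and Gfi1, the granulocyte and stem cell paralog of Gfi1b, by 0.34. Runx3, Mybl2 and Gfi1 passed in all 19 alternatives. Lmo4 rose, as did the ETS genes Ets2 (0.27), Elf4 (0.26) and Ets1 (0.29), named after their values were seen. Of the 7 calls 4 were kept without vehicle array 2 or 3 and with median centring, and Ets1, Ets2 and Elf4 were lost in each of these. Whether a paralog and its member differ in their change was not tested. Of 19 other stem and progenitor factors tested none rose, and 1 fell. That was Sox4, by 0.33 on the log2 scale, and its call was kept without vehicle array 1 and lost without any other array (adjusted p of up to 0.101 by limma). The median of these 19 was 0.04. Ptprc, the leukocyte antigen CD45, had mean intensities of 1965 with the inhibitor and 1725 with vehicle. It passed as higher, with a log2 fold change of 0.19 (adjusted p = 0.0488 by limma), and this call was lost when any array was left out (0.0817 to 0.165) and with median centring (0.251). The leukemia factor genes Hoxa9 and Meis1 had mean intensities of 1791 and 1116 with the inhibitor and of 1935 and 1076 with vehicle. Neither of them passed, and Meis1, like Ptprc, was chosen after its values were seen. Of the 8 leukemia cell identity genes, which include these, 2 rose and 3 fell. Itgam (0.69) rose beside Ptprc, and Mpo (-2.62), Kit (-0.54) and Cd34 (-0.30) fell. Only Itgam and Mpo kept their calls without inhibitor array 1 or without vehicle array 2 or 3. Such intensities do not check the fusion in the label.

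Of 34 tested erythroid, megakaryocyte, mast cell and basophil genes listed as bound or driven by the factors, 6 passed. This share of 17.6% is near the 13.9% of all genes. Gata2, itself 1 of the factors, is among the 34. Of 9 erythroid genes tested none passed (2 had an unadjusted p under 0.05), and the median log2 fold change was 0.03. The erythroid factor gene Klf1 and the heme synthesis gene Alas2, chosen after their values were seen, had log2 fold changes of 0.01 and 0.04. Of 10 megakaryocyte genes Vwf rose by 0.42 and the platelet receptor gene Gp9 fell by 0.33. The Gp9 call was kept without inhibitor array 2 and lost without any other array (adjusted p of up to 0.128 by limma). Of 15 mast cell and basophil genes 2 rose and 2 fell. The pigment and mast cell factor gene Mitf rose by 0.50 and the Fc receptor gamma chain gene Fcer1g by 0.26, and the histamine synthesis gene Hdc fell by 0.31 and the stem cell factor receptor gene Kit by 0.54 on the log2 scale. Mitf and Hdc passed with any array left out. The Mitf value was 0.25 as the mean of its probe sets, which took in a probe set that did not vary once floored at 16. Kit and Fcer1g did not pass without inhibitor array 1 or without any one of the vehicle arrays, where 2 of the 4 calls were left and the adjusted p by limma reached 0.0738 for Kit and 0.0734 for Fcer1g. Median centring also ended the Fcer1g call. Beside these lists stand the monocyte and macrophage markers, with a median of 0.61.

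Of 16 genes known as targets of MYB or RUNX1 in myeloid cells, 7 fell and 1 rose. The shares among all genes were 6.75% called as lower and 7.1% as higher, and the list was not tested against these. Like the other lists, it was chosen with earlier results of these data known. The median of its log2 fold changes was -0.06. Mpo, the myeloperoxidase gene, fell to 124 ± 11.2 with the inhibitor, against 762 ± 32.1 with vehicle (SD, n = 3 each). Csf1r, the receptor gene for macrophage colony-stimulating factor, rose to 2024 ± 69.6 with the inhibitor, against 862 ± 20.1 with vehicle. Myc and Gfi1 fell by 0.35 and 0.34 on the log2 scale. Kit and the progenitor antigen gene Cd34 fell by 0.54 and 0.30, and the granule protease genes Prtn3 and Elane, named after their values were seen, by 0.28 and 0.24. Of the 8 calls 5 were kept without inhibitor array 1 or without vehicle array 2 or 3, and those of Kit, Cd34 and Elane were lost. The log2 fold changes of Mpo (-2.62) and Csf1r (1.23) lay outside the range of the 10 factors, which ran from -0.26 to 0.21. Csf1r is also 1 of the monocyte and macrophage markers.

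**Figure D4:**
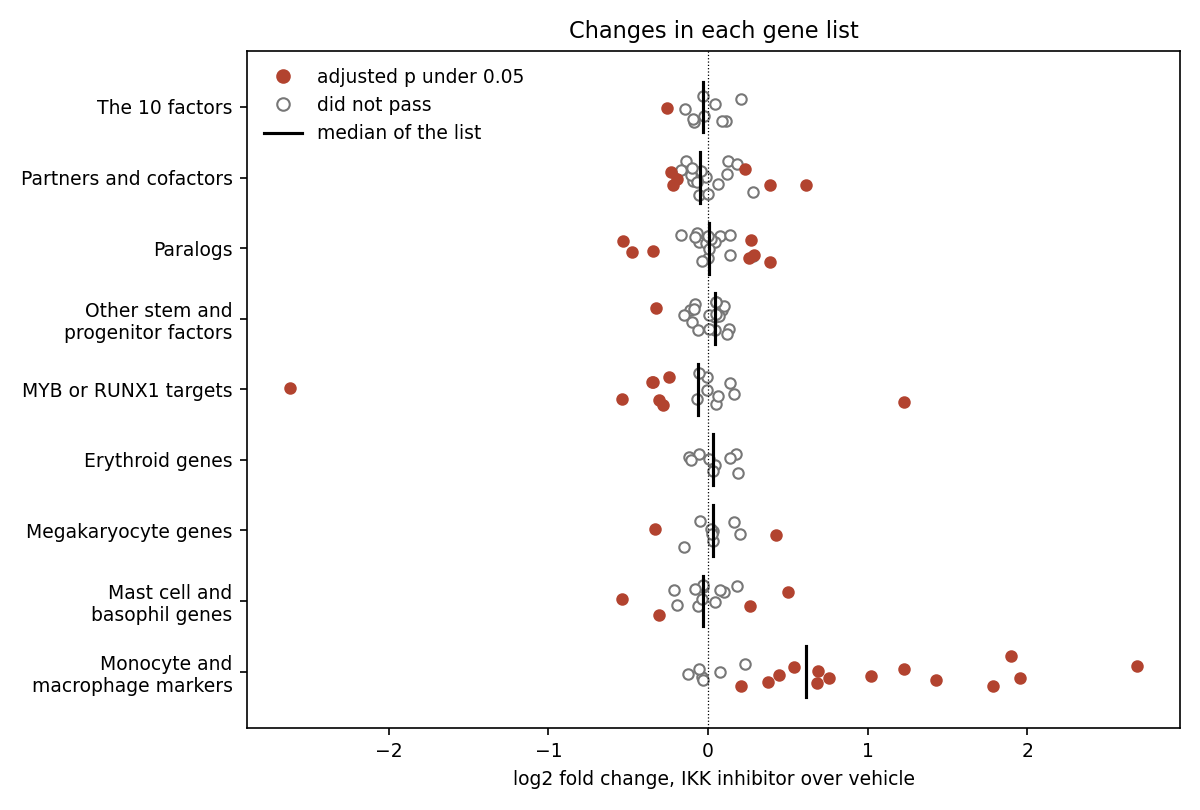
Log2 fold change, IKK inhibitor over vehicle (x axis), of each gene tested in the 10 factors and 8 lists; filled points passed an adjusted p of 0.05 and black lines are list medians. The 10 factors lie between -0.26 and 0.21, and the monocyte and macrophage markers have a median of 0.61.

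Of 41 tested markers of endothelial, T, B and stromal cells 6 passed, a share of 14.6% that is near the 13.9% of all genes. Of 12 endothelial markers 1 was higher (Vwf), of 10 T cell markers 1 (Cd28, 0.48) and of 10 stromal markers 1 (Acta2, 0.77). Of 9 B cell markers Cd22 (0.79) and Blnk (0.32) were higher, and Igll1 (-0.74) was lower. A floor of 64 ended the Blnk call (0.13, adjusted p = 0.0565 by limma). Summed endothelial marker intensity was 1328 to 1450 on inhibitor arrays and 1336 to 1397 on vehicle arrays. The genes whose values ran most like those of Lyl1 over the 6 arrays were Rpn2 (Pearson r = 0.999), Nop58 (0.998) and Timm8a1 (0.997), out of 18628 genes compared. With 6 arrays in 2 groups such values are a description only, and Rpn2 did not pass the test (adjusted p = 0.124 by limma).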

How the data were processed

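Total RNA was labelled as biotinylated sense-strand target and read on Affymetrix whole-transcript arrays, per the labels' protocols. Per the submitters' processing notes, the authors used Affymetrix Expression Console to make the deposited intensity values. The sources used here do not give its version, the summarization or any normalization between arrays. Values from 0.71 to 8186 were read as linear intensities, array medians lay between 112 and 124, and the number of arrays limits the precision. Probe sets were named through the platform annotation (1 symbol for 21789 of 35512, several for 1621, none for 12102), with symbols updated by Entrez number for 21698. Each gene was read from its probe set of highest mean intensity. Values were floored at 16, log2 was taken, and 19847 genes not at the floor throughout were fitted with limma 3.58.1 in R 4.3.3, without covariates. The fit was tested on simulated data, in which the planted changes were larger than those of the factors. That test does not bear on changes of their size.

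The 10 factors, the gene lists and the rules were chosen with earlier results of these data known. Genes named were the 10 factors, up to 4 genes of each list with the smallest p, and the 3 most like Lyl1; others are said to be chosen after their values were seen. No label says what samples of the same number share, so no pairing was used in the main test. A replicate block was 1 of the alternatives. Deviations of same-numbered samples correlated at 0.24, 0.13 and -0.09, and those of differently numbered samples at -0.29 to 0.18. Alternatives changed the block, scaling, floor, filter, probe set rule, prior, array weights and arrays included.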

Additional observations from a re-analysis of the deposited data

How the results depend on the processing

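The log2 fold change of Lyl1 was negative and that of Runx1 positive in all 19 alternatives, whereas the number of the 10 factors called moved between 0 and 4. It was 3 with quantile normalization, 2 with a floor of 32, a floor of 64, the log2 of intensity plus 16, genes above the 25th percentile or array weights, 3 above the median intensity and 4 with an intensity trend and robust prior; leaving out 1 array gave 0 to 1. Above the median intensity only the 5 brighter factors were tested. Over all genes the count of 2749 became 4199 with the intensity trend, 4334 with array weights and 1183 to 2810 with 1 array left out (1273 without inhibitor array 1 and 1567, 1183 and 1219 without vehicle arrays 1, 2 and 3). Across the lists of other genes 44 calls became 27 to 40 with 1 array left out (27 and 28 without vehicle arrays 2 and 3) and 35 to 55 under the other alternatives. With a replicate block 1679 genes were called over all, Lyl1 still passed (adjusted p = 0.0471 by limma) and the number of factors called was 1. The block ended the calls of the partners Ep300, Hdac2, Ssbp3 and Kdm1a, where only Lmo4 and Runx1t1 of 6 were kept, and those of Gp9, Cd34, Elane, Ptprc and the monocyte marker Csf2ra. Settings that leave out an array also have fewer samples; beyond that the cause was not tested.

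Signs turned for values near 0 that did not pass. With 1 array left out, Gata1 ranged from -0.096 to 0.060, Gata2 from -0.0078 to 0.13, Cd3g from -0.26 to 0.024 and Pdgfrb from -0.019 to 0.058. Pdgfrb was -0.00181 with quantile normalization and -0.00228 with median centring. Medians of the paralog, erythroid, megakaryocyte, endothelial and stromal lists lay near 0 and changed sign with the scaling. The lack of detection calls limits what the 5 dimmer factors can show.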
